A study of Mus musculus with 20 samples.

Results

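The colony-stimulating factor (CSF) genes of microglia were followed across 6 conditions: the ligands Csf1 and Il34 and the receptor chains Csf1r, Csf2ra, Csf2rb, Csf2rb2 and Csf3r. They were chosen by gene symbol, and all 7 were found among the 21315 symbols listed for each library. RNA of sorted brain microglia from 9-month-old C57BL/6 mice was sequenced in 20 libraries. APP-KI mice carry the NL-G-F knock-in, a humanized amyloid precursor allele with several familial Alzheimer's disease mutations that drives amyloid plaque formation in the brain. In 14 libraries the cells were gated on CD45 and CD11b alone, from littermates of 4 genotypes: 3 WT, 3 C3aRKO (without the complement receptor gene C3ar1), 3 APP-KI and 5 APP-KI;C3aRKO libraries. The 6 other libraries, 3 WT C3aR+ and 3 APP-KI C3aR+, held cells that were also gated on Td-tomato, and the mice behind them, WT included, carried this reporter in a floxed C3ar1 allele. Mice of both sexes were used, and the libraries are not tied to animals beyond a replicate number, so p-values measure the spread between libraries.

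CSF1 and interleukin 34 are the 2 ligands of CSF1R, the receptor tyrosine kinase on which microglia depend for survival and proliferation. In the brain, neurons are the main source of IL-34, and CSF1 comes largely from glia. CSF2RA is the ligand-binding alpha chain for CSF2 (GM-CSF) and signals only together with a common beta chain. Mice carry that beta chain as Csf2rb, shared by the receptors for CSF2, IL-3 and IL-5, and a close copy, Csf2rb2, that serves IL-3 alone. CSF3R is the receptor for CSF3 (G-CSF), known best from neutrophils.

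Csf1 and Csf2ra were the members that differed most between APP-KI and WT microglia, so the RefSeq sequence upstream of their start sites is shown, as annotated in GRCm38.p6 and given 5′ to 3′ on the strand of the gene. Promoters were listed for 4 of the 7 members, Csf2rb2 and Csf3r being the others. The 250 bases upstream of Csf1 lie on the minus strand of chromosome 3 (chr3:107760470-107760719) and those of Csf2ra on the minus strand of chromosome 19 (chr19:61228419-61228668).
Csf1: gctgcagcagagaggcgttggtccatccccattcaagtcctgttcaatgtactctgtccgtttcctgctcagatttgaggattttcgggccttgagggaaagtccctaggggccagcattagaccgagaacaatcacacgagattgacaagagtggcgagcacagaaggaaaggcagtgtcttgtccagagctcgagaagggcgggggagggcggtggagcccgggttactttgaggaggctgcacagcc
Csf2ra: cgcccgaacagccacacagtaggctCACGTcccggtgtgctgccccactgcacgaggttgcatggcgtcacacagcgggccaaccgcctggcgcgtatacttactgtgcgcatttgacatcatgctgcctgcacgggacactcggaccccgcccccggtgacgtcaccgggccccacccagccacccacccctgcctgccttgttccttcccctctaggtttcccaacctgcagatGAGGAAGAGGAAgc
Capitals mark matches, on either strand, to 3 motifs that were searched: the AP-1 site TGANTCA, the hypoxia response core ACGTG, and GAGGAA, a core bound by the macrophage factor PU.1. The Csf1 window held none of them and the Csf2ra window held 1 ACGTG and 2 adjoining GAGGAA matches, with no overlap between motifs. The windows of Csf2rb2 and Csf3r, not shown, each held 1 GAGGAA match and no match to the other motifs. Over all 32851 promoter windows of the same length, 6.75% held TGANTCA, 16.6% held ACGTG and 23.3% held GAGGAA. A match is a description of letters and not of binding.

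Csf2rb and Csf2rb2 lie side by side on chromosome 15, on opposite strands, and are so alike that reads can be hard to assign. Over 2628 aligned coding bases (GENCODE M21, GRCm38) they were 95.2% identical, with an identical run of up to 242 bases. Of the 50-base stretches of the Csf2rb coding sequence, 26% occurred in Csf2rb2 too, and of its 100-base stretches 11%. Below are the 90-base coding windows, each within 1 exon, in which they differed most, with capitals at the 16 differing bases: chr15:78338897-78338986 on the plus strand for Csf2rb and chr15:78294345-78294434 on the minus strand for Csf2rb2.
Csf2rb: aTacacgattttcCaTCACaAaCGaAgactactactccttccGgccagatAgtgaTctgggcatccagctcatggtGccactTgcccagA
Csf2rb2: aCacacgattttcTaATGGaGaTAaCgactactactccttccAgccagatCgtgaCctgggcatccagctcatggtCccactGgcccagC
A read that lies wholly within an identical stretch cannot be assigned by its own sequence. In a window further along the coding sequence the copies did not differ at any of 90 bases: chr15:78341658-78341747 (plus) and chr15:78291563-78291652 (minus).
Both genes: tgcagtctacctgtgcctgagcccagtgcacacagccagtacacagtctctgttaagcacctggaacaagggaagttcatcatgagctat
How the authors treated such reads is not given in the sources used here, so the split between the copies is uncertain.

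Levels are given as scaled values, each gene's reads divided by a library-wide read level and multiplied by a common constant, so that 1 read was worth between 0.0132 and 0.0785. Libraries held 13939559 to 76608464 reads, with the C3aR+ ones the shallowest (at most 30388941). C3ar1 read 275, 329 and 339 in WT and 68.0, 39.8 and 65.6 in C3aRKO, a reduction without loss of all reads, and was the only gene of 12405 called in that comparison (log2 fold change -2.39 ± 0.27 SE, limma adjusted p = 0.0034). C3ar1 went against the sort label in the libraries labelled WT C3aR+, at 70.8, 81.0 and 37.5, below all 3 WT libraries that were not sorted on C3aR and level with C3aRKO. In those labelled APP-KI C3aR+ it read 382, 251 and 201. Of the 20 libraries, 15 had 3876 to 6438 genes at 0. APP-KI 4, C3aRKO 1, C3aRKO 2 and APP-KI;C3aRKO 1 had 8076 to 8939, and APP-KI 5 had 107. Fold changes of members between APP-KI and its control that rest on them are therefore mostly also given without the first 4. Not given in this way are Csf2rb, and Csf1r between APP-KI;C3aRKO and C3aRKO. The set so restricted holds only libraries of at most 8000 genes at 0. In that set 1661 genes were higher and 1849 lower between APP-KI and WT, and 1655 and 2281 between APP-KI;C3aRKO and C3aRKO, of 12564, with a single C3aRKO library left. The 10 microglial markers summed to between 8191 and 21884, with P2ry12, Tmem119 and Cx3cr1 well above 100 in every library.

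Csf1r was the highest of the CSF genes and Il34 the lowest. Per kilobase of exon, the median scaled value over the 20 libraries was 1340 for Csf1r, 298 for Csf3r, 127 for Csf1, 63.3 for Csf2ra, 32.0 for Csf2rb, 21.2 for Csf2rb2 and 0.18 for Il34. For Csf1 there were 2 sets of libraries that did not meet. In scaled values not divided by length, the 9 libraries without APP-KI read 20.9 to 76.5 and the 11 with it 659 to 1516. The Csf1 median, 671 before division by length, lies at the low end of the second set. Csf2ra showed the same separation, at 63.4 to 138 and 167 to 273. The other 5 members overlapped between these sets. The share of all genes that separate the 11 libraries from the 9 was not computed, so how unusual this is cannot be said.

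**Figure D1:**
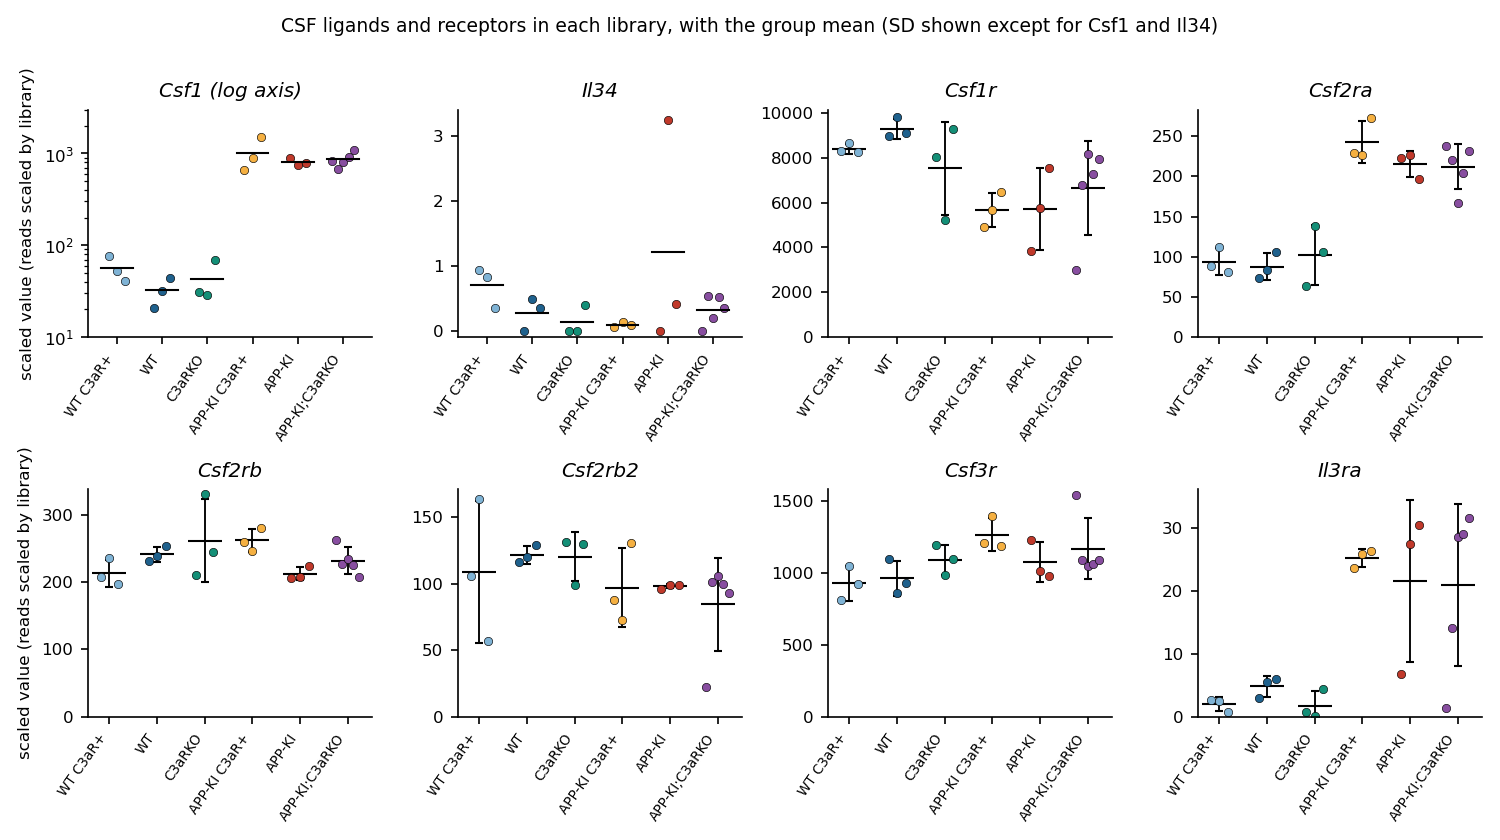
Scaled value (y axis, on a log axis for Csf1) of the 7 members and of Il3ra in each of the 20 libraries, by condition (x axis), with the group mean as a bar and the SD as error bars except for Csf1 and Il34. Csf1 and Csf2ra are higher in all 11 APP-KI libraries than in the 9 others.

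Csf1, the ligand, rose in APP-KI microglia by more than any other member and did so in every background. In the libraries labelled WT C3aR+ it read 76.5, 52.4 and 40.4, and in those labelled APP-KI C3aR+ 659, 901 and 1516. Not selected on C3aR, it read 20.9, 31.7 and 44.5 in WT and 883, 753 and 790 in APP-KI. It read 30.8, 28.9 and 69.1 in C3aRKO, and 819, 683, 816, 908 and 1087 in APP-KI;C3aRKO. The groups did not overlap in any of the 3 comparisons, a pattern seen in 43.5% of genes in the C3aR+ sorts, 29.3% between APP-KI and WT and 13.7% between APP-KI;C3aRKO and C3aRKO. Csf1 rose 17.4-fold between the C3aR+ sorts (log2 fold change 4.12 ± 0.30 SE, 3 against 3, limma adjusted p = 3.5e-05). It rose 28.5-fold between APP-KI and WT (4.84 ± 0.23 SE, 3 against 3, limma adjusted p = 2.7e-08) and 19.1-fold between APP-KI;C3aRKO and C3aRKO (4.26 ± 0.21 SE, 5 against 3, limma adjusted p = 1.2e-08). The libraries not selected on C3aR fall into 2 series by library number, ZE24 and ZE26. Within them, the difference between APP-KI and WT was 5.22 (2 libraries against 1) and 4.36 (1 against 2) on the log2 scale. Between APP-KI;C3aRKO and C3aRKO it was 4.60 (2 against 2) and 3.73 (3 against 1). With only libraries of at most 8000 genes at 0, the differences were 4.67 (limma adjusted p = 1.35e-06) and 3.74 (adjusted p = 2.0e-05). In bulk RNA, a change in the number of cells that make a transcript and a change per cell cannot be told apart.

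In the C3aR+ sorts 3 of the 6 members tested passed, all of them higher (Csf1, Csf2ra and Csf3r), against 22.7% of 12314 genes called in either direction. Between APP-KI and WT, 2 of 6 passed, both higher (Csf1 and Csf2ra), against 4.14% of 12405 genes (275 higher and 239 lower). Between APP-KI;C3aRKO and C3aRKO the members that passed were again Csf1 and Csf2ra, 2 of 6 and both higher, against 6.93% of 12405 genes (491 higher and 369 lower). The C3aR+ comparison depends on the scaling: the median of all genes lay at -0.17 on the log2 scale and at -0.03 with median ratio scaling, under which 1846 genes were higher and 605 lower in place of 1602 and 1195. Directions in the C3aR+ comparison also rest on the libraries labelled WT C3aR+, whose C3ar1 went against the label. Relative to that median of -0.17, the log2 fold changes of all members there are 0.17 higher than printed.

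**Figure D2:**
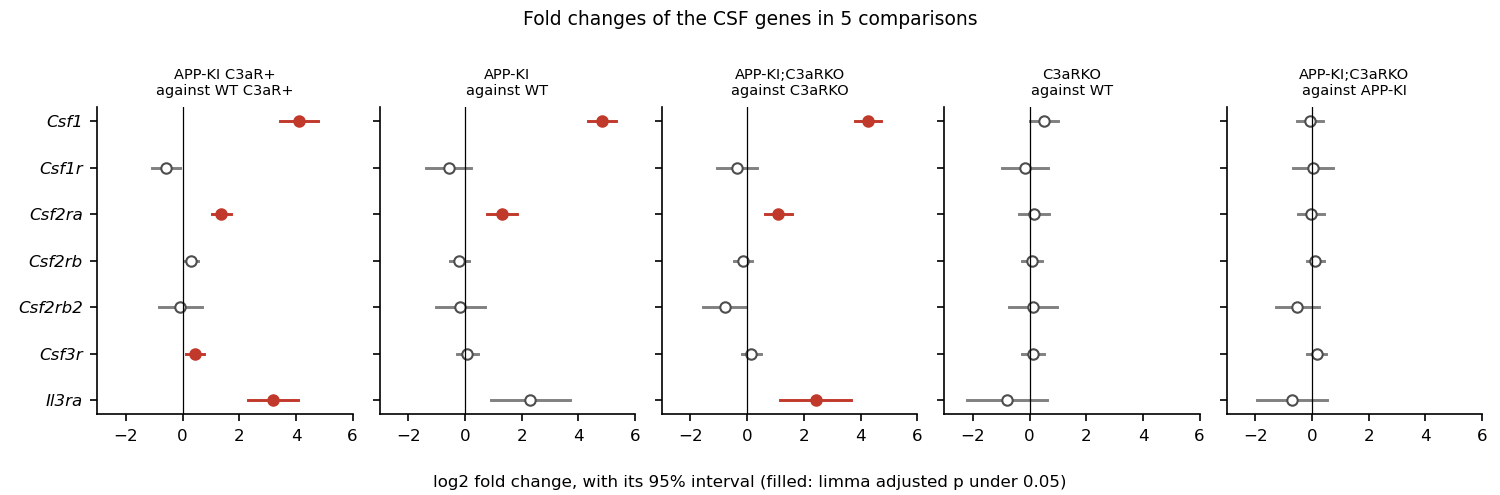
Log2 fold change (x axis) with its 95% interval of 6 members and Il3ra (rows) in 5 comparisons (panels), filled where the limma adjusted p was under 0.05. Csf1 and Csf2ra are filled in the 3 comparisons of APP-KI with its control, and no gene is filled in the 2 comparisons of C3aRKO with its control.

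Markers of other cells that make CSF1 were looked at beside it. The summed endothelial list (6 genes) was 46.9 to 105 in the 9 libraries without APP-KI and 111 to 348 in the 11 with it, and the summed list of oligodendrocytes and their precursors (7 genes) 71.7 to 154 and 231 to 442. In both the separation came from 1 gene, Flt1 (6.97 to 22.1 and 78.2 to 313), a VEGF receptor, and Cspg4 (2.02 to 12 and 101 to 283), a proteoglycan of precursors and pericytes. Without Flt1 the endothelial list read 39.7 to 82.7 and 32.7 to 49.3, and without Cspg4 the other list read 62.4 to 151 and 94.1 to 166. The defining markers Cldn5, Ly6c1, Mog and Pdgfra stayed at or under 10.3, 1.80, 1.78 and 6.77 in all libraries. The astrocyte list (6 genes, mostly Slc1a3) overlapped at 259 to 394 and 207 to 337, and the neuron list (8 genes) at 14.4 to 23.0 and 11.3 to 37.8. The T and NK cell list (7 genes) read 6.14 to 28.4 and 3.72 to 43.3, and the dendritic cell list (7 genes) 37.7 to 76.7 and 22.4 to 52.9. The border macrophage list (7 genes) was mostly lower in APP-KI, with a small overlap, at 395 to 1203 and 183 to 413. The part of these cells in the CSF results was not tested.

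Il34, the second ligand, was at the floor of the data. It was listed at 0 in 5 libraries (WT 4, APP-KI 4, C3aRKO 1, C3aRKO 2 and APP-KI;C3aRKO 1), where 0 reads allow a scaled value of up to 0.0441 to 0.0677. In the C3aR+ sorts it read 0.93, 0.83 and 0.36 in WT (29, 17 and 10 reads) and 0.05, 0.13 and 0.08 in APP-KI (1, 3 and 1 reads). The highest value, 3.24 (155 reads), was in APP-KI 5, the library with only 107 genes at 0. Elsewhere it did not exceed 0.931, so Il34 fell under the filter of a mean of 1 and was not tested. The 2 C3aR+ groups did not overlap, as was the case for 43.5% of genes in that comparison.

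Csf1r, the receptor of both ligands, was lower on average in APP-KI in each comparison, but no call was reached. In the C3aR+ sorts it read 8289, 8663 and 8253 in WT and 4907, 5671 and 6453 in APP-KI. It read 8970, 9805 and 9111 in WT and 3851, 5749 and 7532 in APP-KI not selected on C3aR. It read 8043, 5224 and 9301 in C3aRKO and 3002, 6795, 8174, 7269 and 7938 in APP-KI;C3aRKO. The first 2 comparisons had no overlap between groups, as was the case for 43.5% and 29.3% of genes there, and the third did. The lowest value in APP-KI, C3aRKO and APP-KI;C3aRKO was in each case that of a library with more than 8000 genes at 0. The log2 fold change was -0.57 (95% interval -1.06 to -0.09, limma adjusted p = 0.085) in the C3aR+ sorts, -0.57 (-1.36 to 0.23, adjusted p = 0.67) between APP-KI and WT and -0.37 (-1.08 to 0.33, adjusted p = 0.57) between APP-KI;C3aRKO and C3aRKO. The C3aR+ difference passed with edgeR (-0.45, adjusted p = 0.046) and DESeq2 (-0.42, adjusted p = 0.016) on recovered reads and without APP-KI C3aR+ 3 (-0.67, limma adjusted p = 0.023). The difference between APP-KI and WT passed with only libraries of at most 8000 genes at 0 (-0.46, limma adjusted p = 0.038), not when APP-KI 5 was left out as well (-0.35, adjusted p = 0.18). Exons of Csf1r share 873 bases with those of Hmgxb3 on the opposite strand, and Hmgxb3 read 76.2 to 147 in the libraries, far under Csf1r.

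**Figure D3:**
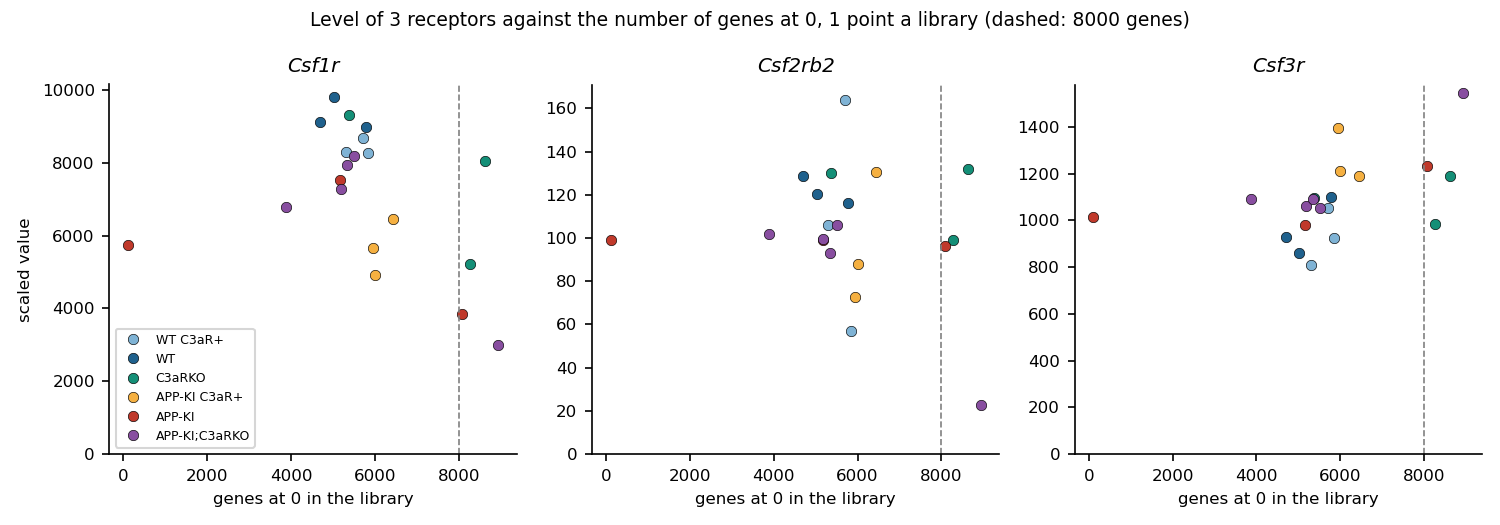
Scaled value (y axis) of Csf1r, Csf2rb2 and Csf3r against the number of genes at 0 (x axis), with 1 point a library colored by condition and a dashed line at 8000 genes. APP-KI;C3aRKO 1, with 8939 genes at 0, is lowest for Csf1r (3002) and Csf2rb2 (22.6) and highest for Csf3r (1545).

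Set against its receptor, Csf1 changed from a trace to a sizeable share. Per kilobase, Csf1 amounted to 0.38% ± 0.14 of Csf1r in WT (SD, n = 3), 0.74% ± 0.25 in WT C3aR+ (n = 3) and 0.61% ± 0.20 in C3aRKO (n = 3). It amounted to 16.9% ± 7.2 in APP-KI (n = 3), 19.2% ± 5.7 in APP-KI C3aR+ (n = 3) and 16.1% ± 7.9 in APP-KI;C3aRKO (n = 5). The highest library without APP-KI stood at 1.01% (WT C3aR+ 1) and the lowest with it at 10.9% (APP-KI;C3aRKO 3), neither of them with more than 8000 genes at 0. The highest of APP-KI (25.1%, APP-KI 4) and of APP-KI;C3aRKO (29.8%, APP-KI;C3aRKO 1) did have more than 8000, and they raised these means. The other libraries of APP-KI and APP-KI;C3aRKO read 10.9% to 15.0%.

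**Figure D4:**
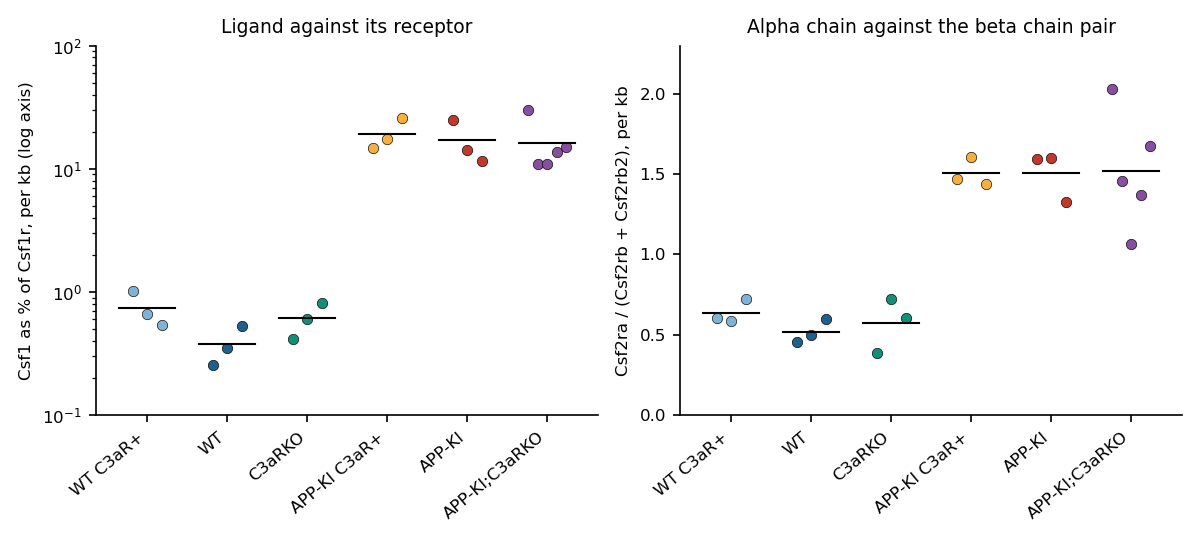
Csf1 as a percent of Csf1r (left, log axis) and the ratio of Csf2ra to Csf2rb and Csf2rb2 together (right), both from values per kilobase, by condition, with 1 point a library and the mean as a bar. In both panels all APP-KI libraries lie above all others.

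Csf2ra, the alpha chain of the CSF2 receptor, also rose in APP-KI, and no rise was called for the beta chains. It read 88.2, 112 and 81.4 in WT C3aR+ and 229, 227 and 273 in APP-KI C3aR+. It read 73.3, 83.8 and 106 in WT and 223, 227 and 197 in APP-KI. It read 63.4, 138 and 106 in C3aRKO and 238, 220, 167, 204 and 232 in APP-KI;C3aRKO. None of the 3 comparisons had an overlap between groups, as was the case for 43.5%, 29.3% and 13.7% of genes in turn. The rise was 2.58-fold in the C3aR+ sorts (log2 fold change 1.37 ± 0.15 SE, limma adjusted p = 0.00026), 2.46-fold between APP-KI and WT (1.30 ± 0.24 SE, adjusted p = 0.0060) and 2.15-fold between APP-KI;C3aRKO and C3aRKO (1.10 ± 0.22 SE, adjusted p = 0.0060). Within the library series ZE24 and ZE26, APP-KI exceeded WT by 1.60 (2 libraries against 1) and 1.05 (1 against 2) on the log2 scale. Leaving out WT 4 ended the call between APP-KI and WT (1.12, adjusted p = 0.081). With only libraries of at most 8000 genes at 0, the differences were 1.28 (limma adjusted p = 0.00085) and 0.94 (adjusted p = 0.011).

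Csf2rb, the common beta chain, stayed within a narrow range of 197 to 331 over the 20 libraries. It read 207, 236 and 197 in WT C3aR+ and 259, 246 and 280 in APP-KI C3aR+, without overlap. Not selected on C3aR, the order was the other way: 231, 239 and 254 in WT and 207, 208 and 223 in APP-KI, again without overlap. Groups did not overlap for 43.5% of all genes in the C3aR+ sorts and for 29.3% between APP-KI and WT. It read 210, 331 and 244 in C3aRKO and 263, 226, 235, 225 and 208 in APP-KI;C3aRKO. None of these differences passed: the log2 fold change was 0.30 (95% interval 0.04 to 0.55, limma adjusted p = 0.089), -0.19 (-0.54 to 0.15, adjusted p = 0.80) and -0.15 (-0.46 to 0.16, adjusted p = 0.62). The first passed with median ratio scaling (0.44, limma adjusted p = 0.033), with edgeR (0.41, adjusted p = 0.046) and with DESeq2 (0.44, adjusted p = 0.015). The difference between the APP-KI effects in the 2 sorts was 0.48 (95% interval 0.14 to 0.82, limma adjusted p = 0.39), and passed with DESeq2 alone (0.58, adjusted p = 0.0496).

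Csf2rb2, the copy that serves IL-3, passed in none of the 3 comparisons with all libraries. It read 106, 164 and 56.9 in WT C3aR+ and 88.0, 72.9 and 131 in APP-KI C3aR+. It read 116, 120 and 129 in WT and 96.3, 99.1 and 99.0 in APP-KI. It read 132, 98.9 and 130 in C3aRKO and 22.6, 102, 106, 99.7 and 93.2 in APP-KI;C3aRKO. WT and APP-KI did not overlap, as was the case for 29.3% of genes in that comparison. The C3aR+ groups did overlap, and APP-KI;C3aRKO 1 lay far under its group. The log2 fold change was -0.08 (95% interval -0.84 to 0.68, limma adjusted p = 0.88), -0.16 (-1.02 to 0.70, adjusted p = 0.98) and -0.79 (-1.56 to -0.03, adjusted p = 0.23). With only libraries of at most 8000 genes at 0, Csf2rb2 was lower in APP-KI than in WT (-0.29, limma adjusted p = 0.019) and lower in APP-KI;C3aRKO than in C3aRKO (-0.37, adjusted p = 0.015), the latter against a single C3aRKO library assumed to vary like the others. Without APP-KI 5 as well, the first was no longer called (-0.30, adjusted p = 0.081).

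Per kilobase, the ratio of the alpha chain to both beta chains together was 0.52 ± 0.07 in WT (SD, n = 3), 0.64 ± 0.08 in WT C3aR+ (n = 3) and 0.57 ± 0.17 in C3aRKO (n = 3). It was 1.51 ± 0.15 in APP-KI (n = 3), 1.5 ± 0.09 in APP-KI C3aR+ (n = 3) and 1.52 ± 0.36 in APP-KI;C3aRKO (n = 5). As the copies differ in length, this ratio depends on how their shared reads were split. Csf2rb took between 59.0% and 77.6% of the summed scaled value of the pair in 19 libraries and 92.1% in APP-KI;C3aRKO 1.

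Csf3r, the CSF3 receptor, was abundant in every library, and its rise passed in the C3aR+ comparison but not in the others. It read 810, 1052 and 924 in WT C3aR+ and 1212, 1398 and 1189 in APP-KI C3aR+. It read 1098, 861 and 929 in WT and 1233, 1014 and 980 in APP-KI, with overlap. It read 1192, 983 and 1094 in C3aRKO and 1545, 1092, 1051, 1062 and 1090 in APP-KI;C3aRKO. The log2 fold change was 0.45 ± 0.14 SE in the C3aR+ sorts (limma adjusted p = 0.047), 0.09 (95% interval -0.29 to 0.47, adjusted p = 0.97) between APP-KI and WT and 0.14 (-0.20 to 0.48, adjusted p = 0.66) between APP-KI;C3aRKO and C3aRKO. With only libraries of at most 8000 genes at 0, the last 2 were 0.04 (limma adjusted p = 0.80) and -0.06 (adjusted p = 0.74). The C3aR+ call was lost without any 1 of 5 of the 6 libraries (all but APP-KI C3aR+ 3, adjusted p between 0.054 and 0.165). The APP-KI effects in the 2 sorts were not shown to differ (difference 0.29, 95% interval -0.21 to 0.79, limma adjusted p = 0.62). The summed list of monocytes and neutrophils (13 genes), the cells best known for Csf3r, was 51.8 to 606 in WT C3aR+ and 62.4 to 271 in APP-KI C3aR+, and its part in the Csf3r values was not tested.

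The C3aRKO comparisons ask whether the CSF genes depended on C3ar1, with and without amyloid. Between C3aRKO and WT 0 of 6 members passed by limma, against 0.00806% of 12405 genes (C3ar1 alone). Csf1 was the only member with an unadjusted p under 0.05 (log2 fold change 0.52, 95% interval 0.02 to 1.02, limma adjusted p = 0.99), and edgeR and DESeq2 called 0 members. Between APP-KI;C3aRKO and APP-KI 0 of 6 passed by limma, against 0.00806% of genes (again C3ar1 alone), with 0 at an unadjusted p under 0.05 and 0 by edgeR and DESeq2. The log2 difference was -0.06 for Csf1 (95% interval -0.51 to 0.39), 0.04 for Csf1r (-0.67 to 0.74) and -0.03 for Csf2ra (-0.50 to 0.44), so a change of Csf1 by more than 1.5-fold between these genotypes lies outside its interval and a change of Csf1r of that size does not. The effect of C3aRKO in APP-KI against its effect in WT was called for 0 members and 0% of 12405 genes by limma, with 0 members at an unadjusted p under 0.05 and 0 by edgeR and DESeq2. For Csf1 this difference was -0.58 (95% interval -1.27 to 0.11).

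The comparisons of the C3aR+ sort with all sorted microglia cannot be told apart from the library series, because every C3aR+ library and no other was of series ZE22. Neither WT C3aR+ against WT nor APP-KI C3aR+ against APP-KI called a member, and limma called 0% of 12586 genes in each. At an unadjusted p under 0.05 there was 1 member in each, Csf1 between the WT sorts (0.80, 95% interval 0.12 to 1.48) and Csf2rb between the APP-KI sorts (0.30, 0.06 to 0.54), and edgeR and DESeq2 called 0. The APP-KI effect in the C3aR+ sort against that in all sorted cells was also called for 0% of genes. By limma 1 member, Csf2rb, had an unadjusted p under 0.05 there, edgeR called 0 and DESeq2 called 1 (Csf2rb). The estimate was -0.54 for Csf1 (95% interval -1.50 to 0.42) and 0.07 for Csf2ra (-0.42 to 0.56).

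Of 8 other CSF ligands and receptors that were listed, only Il3ra and Ptprz1 passed the filter on low values. Il3ra, the alpha chain for IL-3, read 2.73, 2.53 and 0.82 in WT C3aR+ and 23.6, 25.9 and 26.3 in APP-KI C3aR+. It read 2.97, 5.50 and 5.99 in WT and 6.82, 27.4 and 30.4 in APP-KI. It read 0.69, 0.17 and 4.43 in C3aRKO and 1.42, 14, 28.5, 29.0 and 31.5 in APP-KI;C3aRKO. The lowest value of APP-KI and of APP-KI;C3aRKO was in each case in a library with more than 8000 genes at 0. Il3ra rose in the C3aR+ sorts (log2 fold change 3.19 ± 0.39 SE, limma adjusted p = 0.00055) and between APP-KI;C3aRKO and C3aRKO (2.41 ± 0.58 SE, adjusted p = 0.021). The latter call was lost without C3aRKO 2 (2.24, adjusted p = 0.070), C3aRKO 3 (2.55, 0.064) or APP-KI;C3aRKO 2 (2.08, 0.063). Between APP-KI and WT the difference was 2.31 (95% interval 0.91 to 3.71, limma adjusted p = 0.068), and it passed with only libraries of at most 8000 genes at 0 (2.52, adjusted p = 2.1e-05). Ptprz1, a further receptor of IL-34, did not pass in any comparison (adjusted p = 0.57 in the C3aR+ sorts by limma). The ligands Csf2, Il3 and Il5 were at 0 in most libraries and did not exceed 1.21, 2.07 and 1.00, and each was highest in APP-KI 5. Il5ra and Sdc1 did not exceed 3.41 and 2.11. Csf3 did not exceed 0.82 outside C3aRKO 1, at 5.85.

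The genes beyond the members were counted by list, and these counts moved more with single libraries than those of the members did. Summed over the 4 lists that follow and the 8 genes above, 16 genes rose and 16 fell between the C3aR+ sorts, where 1602 genes of 12314 rose and 1195 fell, and with median ratio scaling 16 rose and 10 fell. In APP-KI against WT, 3 rose and 12 fell (2.22% and 1.93% of all genes). Leaving out WT 4 or APP-KI 6 left 1 higher and 2 lower, leaving out WT 5 or WT 6 left 1 and 3, and leaving out APP-KI 4 left 2 and 7. For APP-KI;C3aRKO against C3aRKO, 3 rose and 9 fell (3.96% and 2.97% of all genes), and 3 and 5 without C3aRKO 1, 4 and 5 without C3aRKO 3, and 3 and 6 without APP-KI;C3aRKO 3 or 4. With only libraries of at most 8000 genes at 0 the counts were 9 and 30 between APP-KI and WT and 11 and 25 between APP-KI;C3aRKO and C3aRKO.

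Signalling below CSF1R runs through Src family kinases, PI3 kinase, ERK and, in microglia, the adaptor TYROBP. Of 30 genes of that list, 6 rose and 6 fell between the C3aR+ sorts, with a median log2 fold change of -0.10 against -0.17 over all genes. Those with the largest change were Fgr (2.15) and Fyn (1.53), both Src family kinases, and Tyrobp (1.95). Between APP-KI and WT 3 rose and 5 fell (median -0.19 against -0.01), led by Fgr (1.91), Fyn (1.48) and Tyrobp (1.16). Between APP-KI;C3aRKO and C3aRKO 2 rose and 5 fell (median -0.10 against -0.03), led by Fgr (2.17), Tyrobp (1.83) and the kinase Syk (-0.88). The genes that fell included Src (-0.60, -0.84 and -0.68) and Syk (-0.68, -0.76 and -0.88) in all 3 comparisons, so among Src family kinases Fgr rose and Src fell.

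Receptors for CSF2 and CSF3 signal through JAK2 and the STAT proteins, with SOCS and CISH as feedback inhibitors. Of 16 genes of that list, 3 rose and 1 fell between the C3aR+ sorts (median -0.13 against -0.17 over all genes): those that rose included the feedback inhibitor Socs2 (2.33) and the survival gene Bcl2l1 (0.69), and the kinase Pim2 fell by 1.29 on the log2 scale. By limma 0 of 16 passed between APP-KI and WT (median -0.10 against -0.01) and 0 of 16 between APP-KI;C3aRKO and C3aRKO (median -0.16 against -0.03).

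Of 12 transcription factors of Csf1r and macrophage identity, 2 rose and 3 fell between the C3aR+ sorts (median -0.17, as for all genes). Ets2 rose by 1.14 and Irf8 by 0.62, while Maf (-0.90) and Sall1 (-0.65), factors of the resting microglial program, fell with Mef2a (-0.52). Between APP-KI and WT 0 rose and 3 fell (median -0.19 against -0.01), namely Maf (-1.26), Sall1 (-0.94) and Fli1 (-0.56). Between APP-KI;C3aRKO and C3aRKO Maf alone passed (-0.96; list median -0.01 against -0.03).

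Of 18 tested genes of 19 other cytokine and growth factor receptors, 4 rose and 6 fell between the C3aR+ sorts (median -0.26 against -0.17), the largest changes being Il2rg (1.75), the common gamma chain, Il6ra (-0.86) and Tgfbr2 (0.85). Between APP-KI and WT 0 rose and 4 fell (median -0.52 against -0.01), led by Il6ra (-1.17), the interferon gamma receptor chain Ifngr1 (-0.93), the TNF receptor Tnfrsf1b (-0.88) and Il21r (-0.77). Between APP-KI;C3aRKO and C3aRKO 0 rose and 3 fell (median -0.36 against -0.03): Ifngr1 (-0.90), Il6ra (-0.85) and Il10ra (-0.67).

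**Figure D5:**
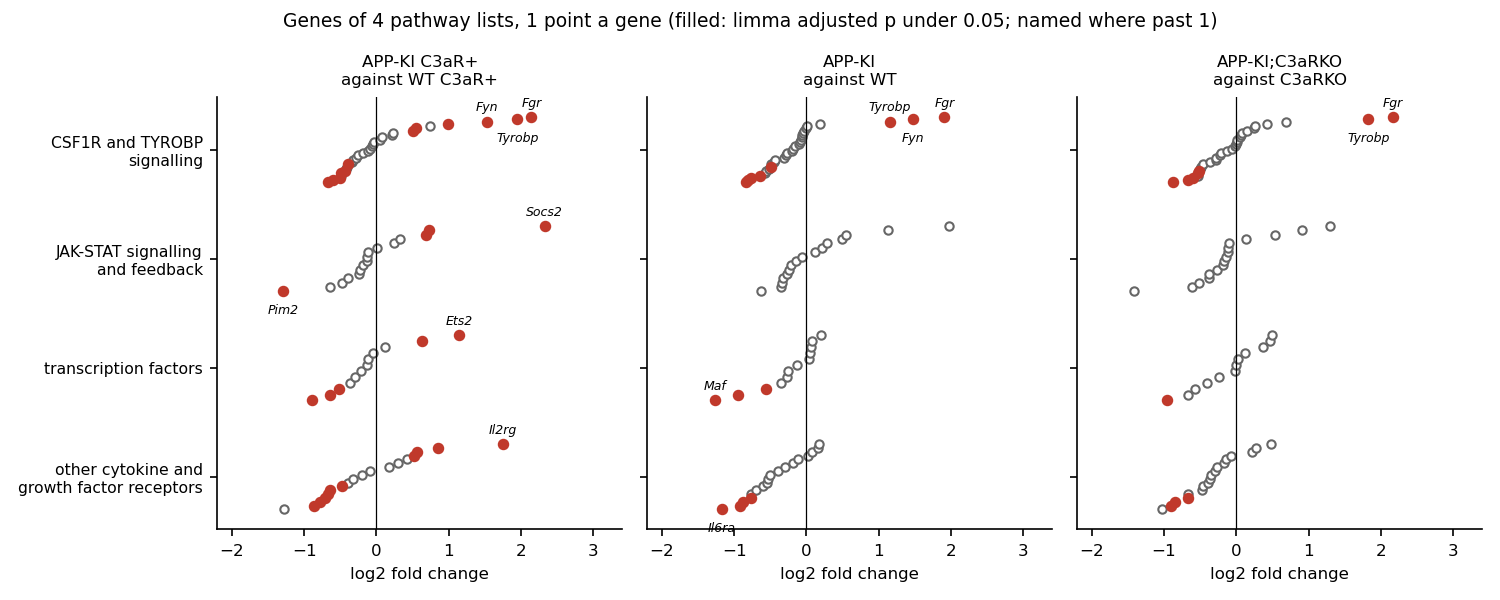
Log2 fold change (x axis) of each tested gene of 4 pathway lists (rows) in the 3 comparisons of APP-KI with its control (panels), filled where the limma adjusted p was under 0.05 and named where filled and past 1 in either direction. Fgr and Tyrobp are the only genes filled and named in all 3 panels.

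The genes whose level followed each member most closely over the 20 libraries were found by Pearson's r on the log2 scale among 12375 genes, as a description in which libraries share genotype and depth. For Csf1 they were Dkk2 (r = 0.99), Mamdc2 (0.99) and Wipf3 (0.98), for Csf2ra Gas2l3 (0.97), Rai14 (0.97) and Kif1a (0.96). For Csf1r they were Sort1 (0.99), Serinc3 (0.98) and Rhog (0.97). For Csf2rb2 they were Mfn2 (0.96), Tlr12 (0.91) and Spata13 (0.90), and for Csf3r Arl2 (0.90), Dtx3 (0.89) and Rasa4 (0.85). Csf2rb had no close companion, its highest being Iqgap1 (0.77), Zmynd15 (0.76) and Trem1 (0.75). All 6 genes named for Csf1 and Csf2ra passed between APP-KI and WT, with log2 fold changes from 2.80 (Gas2l3) to 7.24 (Mamdc2). They were picked for following Csf1 or Csf2ra over the same libraries, and both members separated the APP-KI libraries from the others. That the 6 genes passed therefore follows largely from how they were picked and is not a separate result.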

How the data were processed

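The authors sorted microglia by flow cytometry, sequenced total RNA (SMARTer Pico kit) on an Illumina NovaSeq, aligned reads with TopHat to mm10 and compared groups with DESeq2. The submitters' processing notes also name cutadapt and featureCounts, and how strand, UMIs and reads shared by gene copies were handled is not given in the sources used here. The deposited files hold a signal, named FPKM by the authors, that behaves as gene read counts over 1 library-wide level, their 75th percentile, and not per length. Whole reads were recovered for 100% of values within 0.02 of a whole number.

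Values were multiplied by 35.1 and log2(scaled value + 1) was tested with limma 3.58.1 (R 4.3.3, mean-variance trend, two-sided, Benjamini-Hochberg over all genes with a mean of at least 1, called at an adjusted p under 0.05). Fold changes are on that scale and understate changes of low genes. The 6 C3aR+ libraries were fitted alone, the 14 others together with library series as a term, and the 12 WT and APP-KI libraries of both sorts together for sort comparisons. The log-scale test had been planned for FPKM and was kept. Intervals are 95%, per gene and unadjusted. Alternatives were a pseudocount of 0.1, no filter, median ratio scaling, edgeR 4.0.16 and DESeq2 1.42.0 on recovered reads, the series term, a replicate block and each library left out. Chosen after seeing the data was a restriction to libraries with at most 8000, or 1000 to 8000, genes at 0. The tests were tested on simulated data. The members and lists were chosen with earlier results of these data known. Named are all members, the 3 called genes of each list with the largest change, the 3 genes most alike each member and C3ar1, and further list genes (Src, Syk, Bcl2l1, Irf8, Mef2a, Il21r) were named after their values were seen. A called list gene that this rule would name is not reported here. The C3aRKO and APP-KI comparisons share libraries. Python 3.11.15 was used for the rest. Exon lengths came from GENCODE M21.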

Additional observations from a re-analysis of the deposited data

Results flagged for a closer look

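In APP-KI;C3aRKO, the only condition with more than 3 libraries, replicate 1 stood apart from the other 4 for 3 of 8 genes examined (the 7 members and Il3ra), by the gap to the nearest library as a share of the range (Dixon's ratio, critical value 0.71 for 5 libraries). Csf1r read 3002 there and at least 6795 in the others (ratio 0.733). Csf2rb2 read 22.6 there and at least 93.2 in the others (0.846). Csf3r read 1545 there and at most 1092 in the others (0.918). Chance flags about 1 in 20 groups. The same library had 8939 genes at 0, the most of all 20, and the part of this in the values was not tested. No member passed limma's test of the difference for its C3aRKO effect between APP-KI and WT, or for its APP-KI effect between the sorts.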

How the results depend on the processing

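Csf1 kept its call in all 44 alternatives of the 3 APP-KI comparisons. The count of members called moved by more than 1.5 times in few settings. In the C3aR+ sorts it was 3, and 5 with edgeR and with DESeq2 (Csf1r and Csf2rb added), and between 2 and 4 with each library left out. Between APP-KI and WT it was 2, 1 with the replicate block, 1 to 2 with each library left out (1 without WT 4) and 4 with only libraries of at most 8000 genes at 0. Between APP-KI;C3aRKO and C3aRKO it was 2, 1 with the replicate block and 2 with each library left out. For the APP-KI effect in C3aR+ against all sorted it was 0, and 1 with DESeq2 (Csf2rb). The remaining comparisons called 0 members in every alternative run. For single genes (the 6 tested members and Il3ra), 915 of 1022 alternatives kept the side of the threshold and the sign, 14 gained and 15 lost a call, and 78 changed the sign of a value called in neither. Same-numbered libraries were not shown to pair (deviations correlated at -0.01 to 0.04 in the C3aR+ sorts, 0.09 to 0.25 between WT and APP-KI, at most 0.22 between C3aRKO and APP-KI;C3aRKO, -0.31 and 0.03 between APP-KI and APP-KI;C3aRKO). Between WT and APP-KI, libraries of different number correlated at -0.22 to 0.20. With the replicate block, calls of Csf3r in the C3aR+ sorts (adjusted p = 0.069 by limma), Csf2ra between APP-KI and WT (0.14) and between APP-KI;C3aRKO and C3aRKO (0.076), and Il3ra in the latter (0.14) were not reached. The cause was not tested. No replicate block was fitted where groups share under 2 numbers. Over all genes, calls between APP-KI and WT went from 275 higher and 239 lower to 92 and 19 with the block, 152 and 66 without WT 4, and 1661 and 1849 with only libraries of at most 8000 genes at 0. Those between APP-KI;C3aRKO and C3aRKO went from 491 and 369 to 187 and 56 with the block and 1655 and 2281 in that set. Over the pathway lists, the block left 0 higher and 0 lower between APP-KI and WT and 2 and 0 between APP-KI;C3aRKO and C3aRKO. Il34 had a mean scaled value under 1 and was tested by limma only without the filter, where it was not called.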
